A study of Mus musculus with 10 samples.

Results

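The NEDD4 family of ubiquitin ligases comprises 9 genes in the mouse, Wwp1, Wwp2, Itch, Nedd4, Nedd4l, Smurf1, Smurf2, Hecw1 and Hecw2. They were chosen as the WW-domain ligases of the HECT class, and because of how they compared between 2 groups of tumors in these data, in which Wwp1 was the leading gene. Of the 9 genes, 8 had counts among the 17864 genes of the table, and all 8 were among the 14816 genes with enough counts to be tested. Hecw1 was not analysed here.

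RNA was measured by sequencing in 10 whole tumors of 4T1, a mouse mammary carcinoma cell line that carried Cas9 in both groups. The cells of 5 tumors had a control guide RNA (sgCon), and in those of the other 5 the guide RNA targeted Wwtr1, which encodes TAZ (sgTaz). By the methods, 100000 cells were placed in mammary fat pad number 4 of female SCID or BALB/c mice, 6 to 8 weeks of age. Which strain bore the sequenced tumors, and whether the guide RNA cells were a pool or 1 clone, was not given in the sources used here, and the labels do not say that each tumor came from its own mouse, so that every test below measures the spread between these tumors. The comparison asks what loss of TAZ in the tumor cells changes in the RNA of the tumor.

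Ubiquitin ligases of the HECT class take ubiquitin from an E2 enzyme onto a cysteine of their own and pass it on to a lysine of the substrate. NEDD4-family ligases share a C2 domain that binds membranes, several WW domains and the catalytic HECT domain at the end of the protein. The WW domains bind short proline-rich motifs that end in a tyrosine (PPxY) in substrates and in adaptors, and TAZ has a WW domain of the same kind. Members of the family are known to mark receptors of TGF-β and growth factors, SMAD proteins, the kinase LATS1 and angiomotin for removal.

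The catalytic cysteine is what makes these genes ligases, so the coding sequence around it is shown for 7 of them. Nedd4l and Hecw1 are not shown, which says nothing about their cysteine. Each line holds 30 coding bases, 5′ to 3′, from the GENCODE M21 transcript with the longest coding sequence, and capitals mark the cysteine codon.
Wwp1: agaagccatacaTGTtttaatcgcttggat
Wwp2: aggagccatacgTGCttcaaccgtctggac
Itch: agaagccatactTGTtttaaccgcctggac
Nedd4: agagcacacaccTGCttcaatcgcctggac
Smurf1: aaggcccataccTGCtttaatcggatcgac
Smurf2: aaagcccacactTGCttcaatcgaatagac
Hecw2: agagcccacactTGTtttaaccgcctggat
The codon lay 32 codons before the end of the coding sequence, and 33 in Nedd4. Across the 21 pairs of these genes, between 19 and 26 of the 30 bases were identical, and 16 positions were the same in all 7. Wwp1 shared 26 bases with Itch and 22 with Wwp2, the gene it is named with. The coding sequences themselves ran from 748 codons in Smurf2 to 1578 in Hecw2, with 918 in Wwp1.

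Despite this likeness, no stretch of 50 bases from the longest transcript of any of the 8 measured members was found in another member. Reads of that length from these transcripts could thus be told apart within the family. Exons outside the longest transcript were not among these stretches. The exons of Nedd4l sum to 17659 bases, against 7787 in its longest transcript, and those of Wwp2 to 8871 against 4314. Wwp1 shared 360 of its 6391 stretches of 50 bases (5.63%) with other genes, mostly with Gm13416 and Gm12353, and Itch shared 93 of 5260 (1.77%), mostly with Gm16223. None of these 3 genes had counts in the table. Wwp1 also shares 46 exon bases with Gm12353 on the opposite strand, and Nedd4l shares 277 with the antisense gene A330084C13Rik. A strand setting of the counting is not given in the sources used here, so reads of these bases cannot be told apart.

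The depth of the sgCon tumors ran from 14753922 to 19595821 counts (median 17155103) and that of the sgTaz tumors from 12185383 to 18395558 (median 15566873). Wwtr1, the targeted gene, averaged 163.1 ± 30.2 CPM (SD, n = 5) in sgCon against 108 ± 19.2 CPM (SD, n = 5) in sgTaz tumors, where CPM is the count of a gene scaled to the same total in every tumor. The sgTaz tumor 4, at 139 CPM, lay above the sgCon tumor 3, at 115 CPM. These are RNA levels of whole tumors, and TAZ protein was not measured in these data. The paper detected the knockdown by immunoblot in the 4T1 cells. The sgTaz tumor 5 stood apart from its group, with lymph node stroma markers summed to 353 CPM against 3.10 to 8.09 CPM in the other sgTaz tumors. In the sgCon tumors the same markers were between 36.5 and 705 CPM. The labels call the cells tumor cells, and markers of epithelial tumor cells were summed to between 1645.5 and 5069 CPM in every tumor, but markers of macrophages, fibroblasts and endothelium were present in every tumor too. In such whole tumors, fewer cells of a type and less RNA per cell cannot be told apart.

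The group comparison was used to choose the genes, so the values of the members in it are given as a description, without a test. Wwp1, Nedd4 and Itch were higher in sgTaz tumors by fold changes of 1.59, 1.42 and 1.19, Wwp2 was lower at 0.87 of the sgCon level, and Nedd4l, Smurf1, Smurf2 and Hecw2 differed by no more than the spread between tumors. The total of each tumor was scaled by TMM before CPM were taken, and fold changes come from the fit of edgeR's quasi-likelihood method over all genes tested.

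Wwp1 (ENSMUSG00000041058.15) is a gene of chromosome 4 (mm10, 19608303 to 19708993, minus strand), and the positions of the other members are in mm10 too. Its product ubiquitylates transcription factors and receptors. By replicate number, Wwp1 stood at 70.2, 84.0, 87.5, 68.6 and 60.4 CPM among sgCon tumors and among sgTaz tumors at 114, 101, 129.8, 126 and 118 CPM. Every sgTaz tumor was above every sgCon tumor. The means were 74.1 ± 11.3 CPM (SD, n = 5) and 118 ± 11.3 CPM (SD, n = 5), with a log2 fold change of 0.67 (standard error 0.11) that was higher than in 97.4% of the genes tested. Leaving out each tumor gave values between 0.61 and 0.74, and without the sgTaz tumor 5 it was 0.67. A correction for GC content and exon length gave 0.60, where Wwp1 stands at 39.6% GC.

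Wwp2 (ENSMUSG00000031930.11; chromosome 8 from 107436365 to 107558595, plus strand) encodes a ligase with the same arrangement of domains as that of Wwp1. Its level stood at 83.3, 77.1, 85.8, 85.0 and 85.8 CPM among sgCon tumors and among sgTaz tumors at 73.1, 81.2, 71.4, 70.2 and 66.8 CPM. All sgCon tumors stood above 4 of the 5 sgTaz tumors, the exception being the sgTaz tumor 2. The log2 fold change was -0.20 (standard error 0.069) and -0.15 with the GC and length correction. With 83.4 ± 3.69 CPM (SD, n = 5), Wwp2 varied least of the members among sgCon tumors, with a coefficient of variation of 4.42%.

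Itch (ENSMUSG00000027598.16; chromosome 2 from 155133509 to 155226855, plus strand) encodes a ligase of JUNB whose loss in the mouse gives inflammation of the skin. It was at 97.0, 90.4, 72.6, 81.7 and 81.4 CPM in sgCon tumors and at 99.2, 91.1, 102, 111 and 100.4 CPM in sgTaz tumors. The groups overlapped by 1 sgTaz tumor, the tumor 2, which lay below the sgCon tumor 1. The log2 fold change was 0.25 (standard error 0.086), and 0.19 with the GC and length correction.

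Nedd4 (ENSMUSG00000032216.15; chromosome 9 from 72662346 to 72749852, plus strand) is the founding member and ubiquitylates growth factor receptors. It had by far the most counts of the family, from 9227 to 22547 in a tumor. Its level was 935, 794, 589.85, 817 and 632 CPM among sgCon tumors, and among sgTaz tumors 1049.5, 902, 1208, 1156 and 1027 CPM. Only the sgTaz tumor 2 lay below an sgCon tumor, the tumor 1. The log2 fold change was 0.50 (standard error 0.13), between 0.43 and 0.59 with any 1 tumor left out, and 0.48 with the GC and length correction.

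Nedd4l (ENSMUSG00000024589.18; chromosome 18 from 64887705 to 65217828, plus strand) encodes the ligase that removes the epithelial sodium channel. Its mean was 16.8 ± 2.93 CPM (SD, n = 5) without and 13.8 ± 2.75 CPM (SD, n = 5) with the Wwtr1 guide. The sgTaz tumor 1 was lowest, at 9.17 CPM, and the other sgTaz tumors, between 14.0 and 16.3 CPM, lay among the sgCon tumors, between 13.5 and 20.4 CPM. The log2 fold change was -0.28 (standard error 0.17), and -0.16 (standard error 0.141) without the sgTaz tumor 1.

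Smurf1 (ENSMUSG00000038780.14; chromosome 5 from 144876495 to 144965847, minus strand) and Smurf2 (ENSMUSG00000018363.16; chromosome 11 from 106820066 to 106920715, minus strand) act on SMAD proteins and, with SMAD7, on receptors of TGF-β. Smurf1 had means of 85.1 ± 8.01 CPM (sgCon; SD, n = 5) and 84.3 ± 8.82 CPM (sgTaz; SD, n = 5), a log2 fold change of -0.01 (standard error 0.092) that became 0.04 with the GC and length correction. Smurf2 had means of 112 ± 18.4 CPM (sgCon; SD, n = 5) and 122 ± 13.2 CPM (sgTaz; SD, n = 5), a log2 fold change of 0.13 (standard error 0.12) that was 0.05 without the sgCon tumor 3. For both genes the ranges of the groups overlapped over most of their length.

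Hecw2 (ENSMUSG00000042807.15; chromosome 1 from 53806876 to 54195168, minus strand), known as a ligase of p73, was the lowest member, with 48 to 117 counts in a tumor. It was at 3.96, 5.76, 2.99, 4.72 and 3.42 CPM in sgCon tumors and at 3.56, 3.10, 6.27, 5.83 and 6.04 CPM in sgTaz tumors. The sgTaz tumors were split, 3 above every sgCon tumor and the other 2 in the lower part of the sgCon range. The log2 fold change was 0.25 with a standard error of 0.26, and between 0.15 and 0.39 with any 1 tumor left out.

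**Figure D1:**
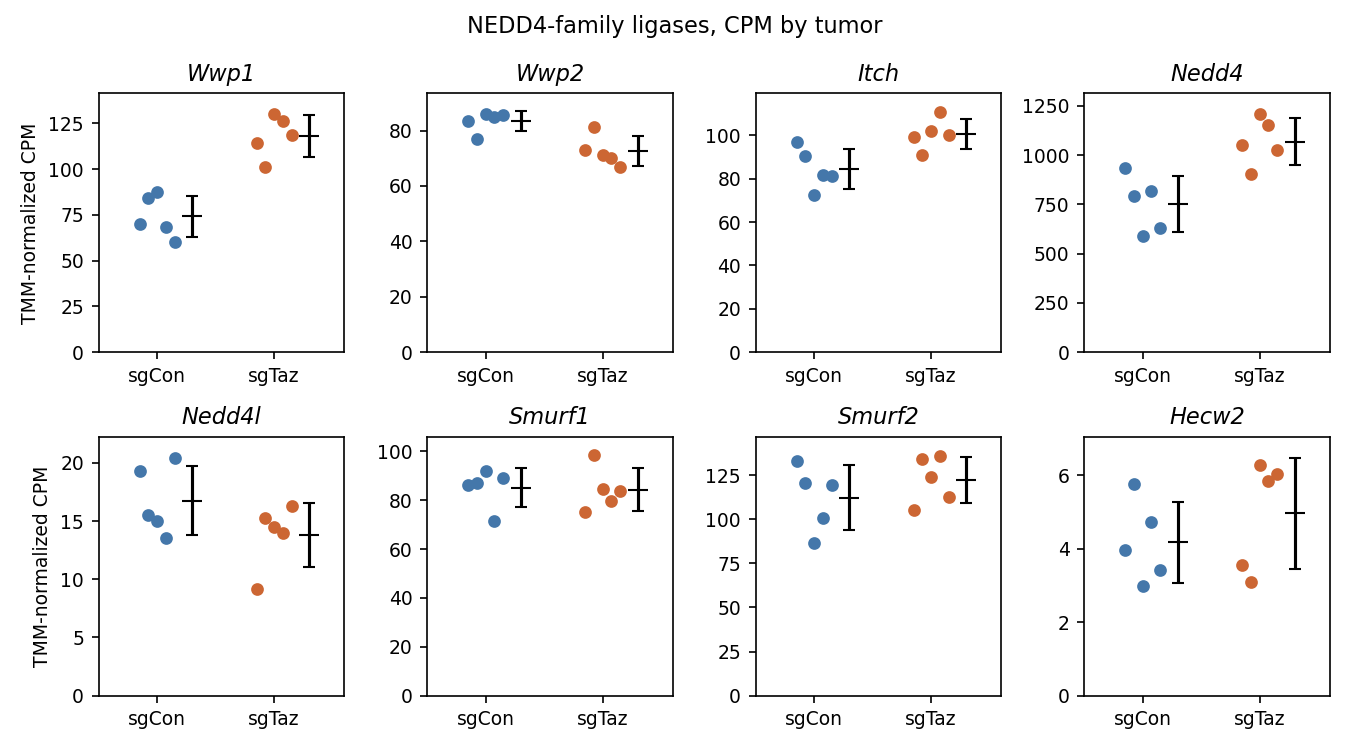
Level of each measured NEDD4-family gene in every tumor, as TMM-normalized CPM on a linear axis that starts at 0; points are tumors in the order of their replicate numbers, and the bar beside them gives the mean and SD of the 5 tumors of a group. The groups are apart for Wwp1, at 60.4 to 87.5 CPM against 101 to 129.8 CPM, and overlap for the other 7 genes.

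Over the members, 5 log2 fold changes were above 0 and 3 below, with a median of 0.19, beside a median of -0.02 over all genes tested, of which 47.0% were above 0. Groups that did not overlap were found for 1 of the 8 members, beside 4.57% of all genes tested, 2.44% higher and 2.13% lower. At an adjusted p below 0.05, edgeR's quasi-likelihood test called 0 of the 8 members and 0.00675% of all genes tested. At an unadjusted p below 0.05 these were 4 members and 21.8% of all genes, with Wwp1, Nedd4 and Itch among the 9.86% higher in sgTaz tumors and Wwp2 among the 11.9% lower. DESeq2 called 2 members, Wwp1 and Nedd4, both higher, and 6.87% of all genes, 3.38% higher and 3.5% lower. With limma-voom the calls were Wwp1 and Nedd4, both higher, and 10.4% of all genes, 4.63% higher and 5.8% lower. Without the sgTaz tumor 2, edgeR called Wwp1 and 0.499% of all genes, and without the sgTaz tumor 5 it called Wwp1 and 1.15%. Since the members were chosen from this comparison, nothing is read from these counts.

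**Figure D2:**
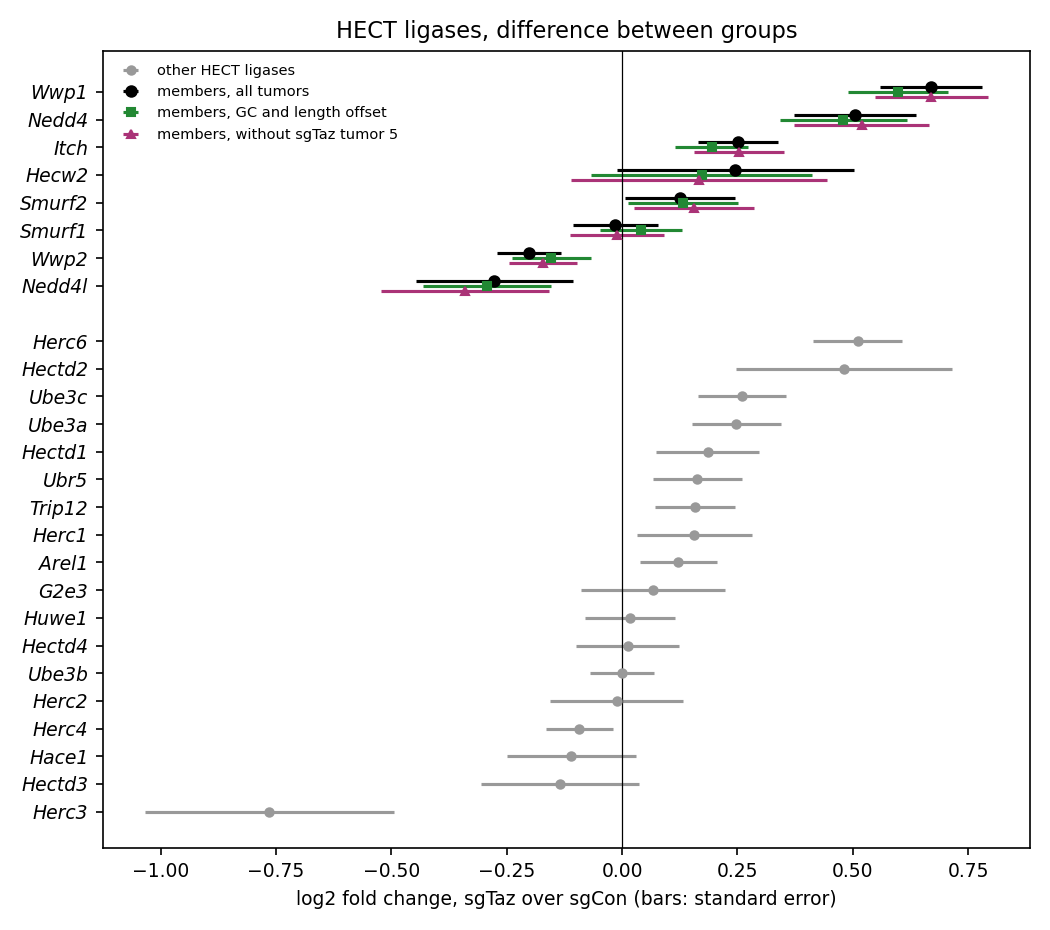
Log2 fold change of sgTaz over sgCon tumors, with its standard error as a bar, for the 8 measured NEDD4-family genes (all tumors, with the GC and length correction, and without the sgTaz tumor 5) and for the 18 other HECT ligases in grey. Wwp1 lies at 0.67, 0.60 and 0.67 under these 3 fits, and the 18 other ligases run from -0.76 for Herc3 to 0.51 for Herc6.

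Because Wwp1 was higher and Wwp2 lower in sgTaz tumors, the counts of relatives were set against each other within each tumor, where depth cancels. These ratios rest on the same comparison and are a description as well. The ratio of Wwp1 to Wwp2 counts was 0.843, 1.09, 1.02, 0.806 and 0.704 in sgCon tumors and 1.56, 1.24, 1.82, 1.80 and 1.77 in sgTaz tumors. Wwp1 thus had about as many counts as Wwp2, or fewer, in each sgCon tumor and more than Wwp2 in each sgTaz tumor. The groups did not overlap in this ratio, as they did not in Wwp1 alone. The fold change of the ratio was 1.84, and 1.70 with the GC and length correction, where Wwp2 stands at 55.3% GC against 39.6% in Wwp1.

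The ratio of Nedd4 to Nedd4l counts averaged 46.0 ± 11.3 (sgCon; SD, n = 5) and 80.6 ± 22.0 (sgTaz; SD, n = 5), with overlap by the sgTaz tumor 2 at 59.2. The ratio of Smurf2 to Smurf1 was 1.32 ± 0.228 (SD, n = 5) and 1.46 ± 0.149 (SD, n = 5), with wide overlap. The ratio of Wwp1 to Nedd4 counts averaged 0.102 ± 0.0285 (sgCon; SD, n = 5) and 0.111 ± 0.00307 (sgTaz; SD, n = 5). Its range was 0.0751 to 0.148 among sgCon tumors and 0.107 to 0.115 among sgTaz tumors, inside the sgCon range. The ratio of Wwp1 to Itch counts ran from 0.723 to 1.21 in sgCon tumors and from 1.11 to 1.27 in sgTaz tumors. That of Itch to Wwp2 ran from 0.846 to 1.17 and from 1.12 to 1.58, and the groups overlapped in both.

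**Figure D3:**
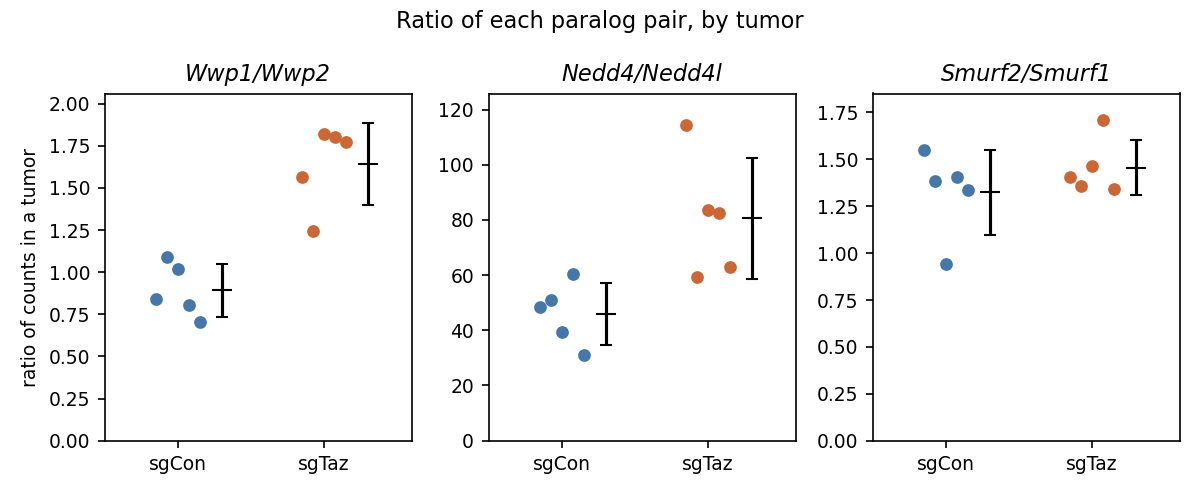
Ratio of counts of 3 pairs of related genes within each tumor, on linear axes that start at 0; points are tumors in the order of their replicate numbers, and bars give the mean and SD of the 5 tumors of a group. The Wwp1/Wwp2 ratio runs from 0.704 to 1.09 in sgCon tumors and from 1.24 to 1.82 in sgTaz tumors, while the other 2 ratios overlap.

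For levels between genes, counts were divided by the summed length of the exons of a gene as well as by depth (RPKM). Nedd4 was the most abundant member, with means of 68.7 ± 12.9 RPKM (SD, n = 5) in sgCon tumors and 97.4 ± 10.9 RPKM (SD, n = 5) in sgTaz tumors, and made up between 47.1% and 60.0% of the RPKM summed over the 8 members. This share depends on the length used. With the longest transcript as the length, Nedd4 had means of 137 and 194 RPKM, and Smurf2, the next highest, 21.2 and 23.1 RPKM. By summed exon length, the mean order over the 10 tumors was Nedd4, Smurf2, Wwp1, Smurf1, Itch, Wwp2, Nedd4l and Hecw2. In sgCon tumors Smurf2 was at 18.2 RPKM, Smurf1 at 13.4, Wwp1 at 11.5, Wwp2 at 9.40, Itch at 8.72, Nedd4l at 0.949 and Hecw2 at 0.322. In sgTaz tumors Smurf2 was at 19.9 RPKM, Wwp1 at 18.3, Smurf1 at 13.3, Itch at 10.4, Wwp2 at 8.18, Nedd4l at 0.783 and Hecw2 at 0.383.

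Neighbours in this order were compared over the 10 tumors with an exact two-sided sign-flip permutation test, adjusted over the 7 pairs, whose smallest unadjusted p is 0.00195. The order was taken from these same tumors, so the direction of each mean difference was set beforehand and is not a result of the test. Nedd4 was above Smurf2 by 2.10 ± 0.293 on the log2 scale of RPKM (SD, n = 10; adjusted exact p = 0.00342), in 10 of 10 tumors. At the other end, Wwp2 was above Nedd4l by 3.36 ± 0.29 (SD, n = 10; adjusted exact p = 0.00342) and Nedd4l above Hecw2 by 1.29 ± 0.519 (SD, n = 10; adjusted exact p = 0.00342), each in 10 of 10 tumors. These steps also held with the longest transcript of each gene as its length.

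The order in the middle was less firm. Smurf2 was above Wwp1 by 0.39 ± 0.416 (SD, n = 10; adjusted exact p = 0.0273) in 7 of 10 tumors. The difference was 0.66 ± 0.399 (SD, n = 5) in sgCon tumors, where Smurf2 was higher in 5 of 5, and 0.12 ± 0.216 (SD, n = 5) in sgTaz tumors, where it was higher in 2 of 5. Over all tumors, the adjusted exact p became 0.0547 without any of the sgCon tumors 1, 2, 4 and 5 or the sgTaz tumors 2 and 4, with differences between 0.31 and 0.41. With the longest transcript as the length, Smurf2 was above Wwp1 by 0.61 ± 0.416 (SD, n = 10; adjusted exact p = 0.00342). Smurf1 was above Itch by 0.49 ± 0.257 (SD, n = 10; adjusted exact p = 0.00342) in 10 of 10 tumors, but the difference turned to -0.15 with the longest transcript as the length, so this step rests on which exons are counted. Over both groups, Wwp1 and Smurf1 differed by 0.11 ± 0.430 (SD, n = 10; adjusted exact p = 0.416), and Itch and Wwp2 by 0.11 ± 0.305 (SD, n = 10; adjusted exact p = 0.303). These spreads hold the difference between the groups. Wwp1 minus Smurf1 was -0.23 ± 0.223 (SD, n = 5) in sgCon tumors, below 0 in 5 of 5, and 0.46 ± 0.259 (SD, n = 5) in sgTaz tumors, above 0 in 5 of 5. Itch minus Wwp2 averaged -0.12 ± 0.204 (sgCon; SD, n = 5), above 0 in 2 of 5 tumors, and 0.34 ± 0.19 (sgTaz; SD, n = 5), above 0 in 5 of 5. With 5 tumors the exact test cannot go below 0.0625.

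**Figure D4:**
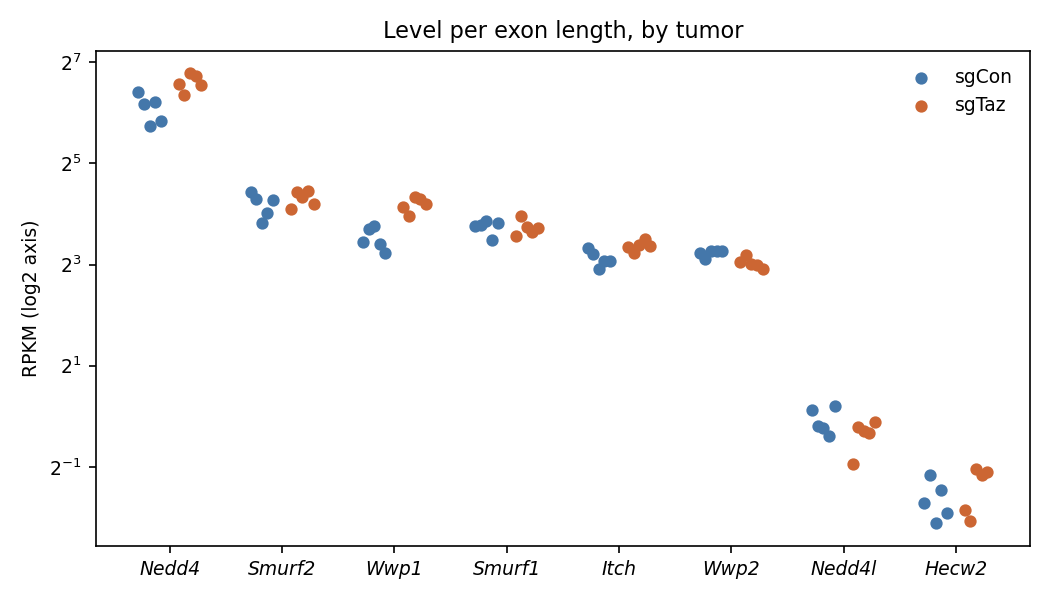
RPKM of the 8 measured members in every tumor on a log2 axis, in the order of their mean level; blue points are the 5 sgCon tumors and orange points the 5 sgTaz tumors. Nedd4 lies between 53.8 and 110.1 RPKM, the 5 members in the middle between 7.48 and 22.1 RPKM, and Nedd4l and Hecw2 at or below 1.16 RPKM.

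Whether members varied together was examined among tumors of the same group, with the group means taken off, so that the difference between groups did not enter. The points of each relation share their library, depth and base composition. Over the 28 pairs of members, Pearson's r was above 0 in 15 and its median was 0.124. None of the 28 passed an adjusted p below 0.05 in an exact permutation of tumors within groups.

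Itch and Nedd4 had the highest r, 0.863, with Spearman's rho 0.806 (10 tumors; exact permutation p = 0.0059 and 0.0163, adjusted p = 0.0826 and 0.152). Leaving out the 2 tumors farthest from the median of Itch gave 0.684, and with the GC and length correction it was 0.913 (adjusted exact p = 0.0661). Wwp2 and Hecw2 had the lowest r, -0.834, with rho -0.879 (10 tumors; adjusted exact p = 0.0797 and 0.0661), and -0.768 when the 2 farthest tumors were left out. With the GC and length correction it was -0.434.

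The highest r of Wwp1 with another member was 0.44, with Hecw2, and became 0.814 with the 2 farthest tumors left out. Its r was 0.167 with Nedd4, 0.103 with Itch and -0.552 with Wwp2. The last was -0.811 with the 2 farthest tumors left out and became 0.05 with the GC and length correction. With that correction the relation of Wwp1 to Nedd4l went from -0.268 to -0.671 (adjusted exact p = 0.106).

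**Figure D5:**
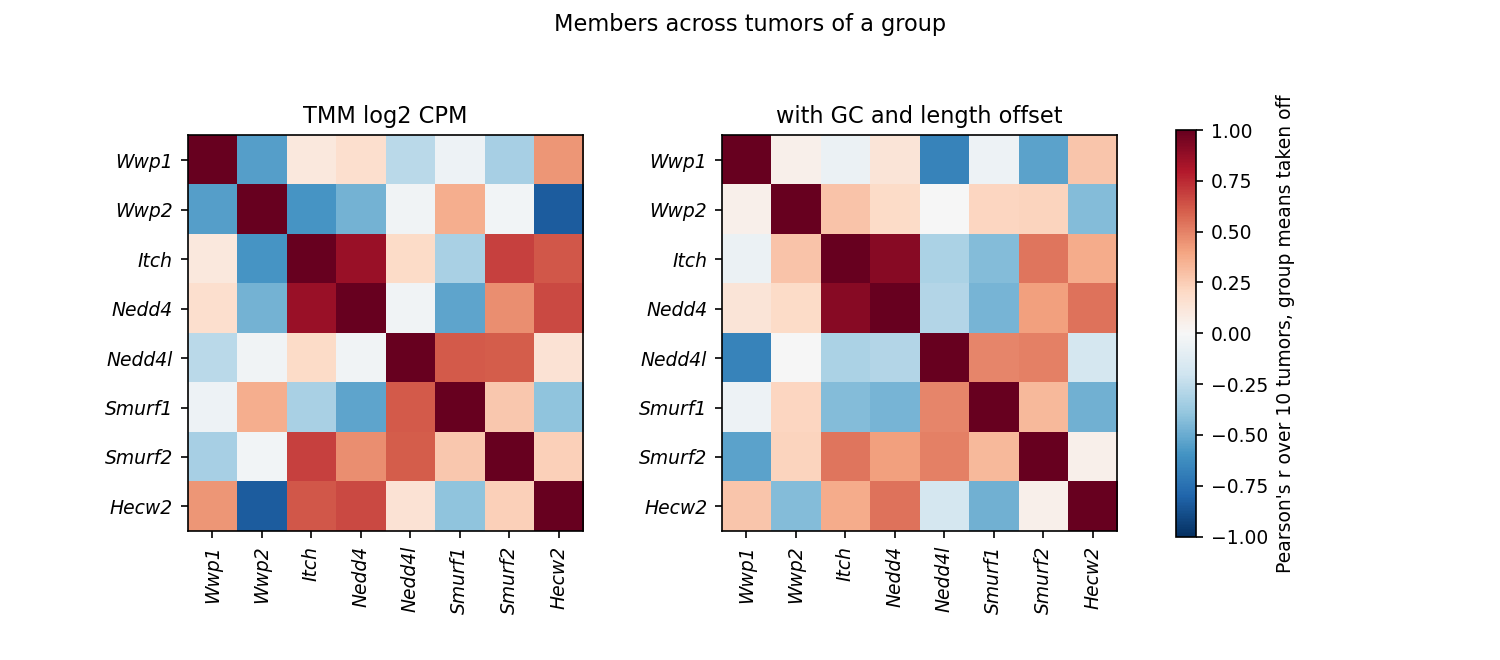
Pearson's r between members over 10 tumors with the group means taken off, on log2 CPM (left) and with the GC and length correction (right); red is positive and blue negative. Itch and Nedd4 are at 0.863 and 0.913, whereas Wwp1 and Wwp2 go from -0.552 to 0.05.

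Among 14063 genes with a mean of at least 1 CPM, those whose log2 CPM followed Wwp1 most closely within groups over the 10 tumors were Mtmr9 (r 0.964), Plekho2 (r 0.943), Clic4 (r 0.94), Hadha (r 0.933) and Pcdhga6 (r 0.928). Mtmr9 belongs to the myotubularins, Clic4 is an intracellular chloride channel protein, and Hadha is a subunit of the mitochondrial trifunctional protein. With the GC and length correction, these 5 were at an r of 0.825, 0.795, 0.848, 0.87 and 0.818. The lowest were Cchcr1 (r -0.971), Csnk2a2 (r -0.958), a catalytic subunit of casein kinase 2, and Gm2237 (r -0.954), and the correction moved them to -0.683, -0.378 and -0.724. They are the extremes of many genes and are given without a test.

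Markers of other cells were compared between the groups as well. With edgeR's log2 fold changes, all 9 macrophage markers and all 6 adipocyte markers tested were higher in sgTaz tumors, and all 10 B cell, 8 T cell, 6 neutrophil, 5 lymph node stroma and 10 epithelial tumor cell markers tested were lower. Over all genes tested, 47.0% of the log2 fold changes were above 0. None of these markers passed the adjusted threshold of edgeR, as 0.00675% of all genes tested did. The summed markers of the groups overlapped for every list. For B cell, T cell and lymph node stroma markers, this overlap came from the sgTaz tumor 5. The other 4 sgTaz tumors lay below every sgCon tumor. Summed B cell markers were at 8.01 to 24.9 CPM in these 4 and at 239 CPM in the sgTaz tumor 5. In sgCon tumors they were between 75.9 and 1020 CPM. T cell markers were at 47.8 to 70.3, at 160 and between 77.2 and 643 CPM in the same order. Summed over the list, macrophage markers were between 791 and 1853 CPM in sgCon tumors and between 1534.5 and 2138 CPM in sgTaz tumors, with 4 sgTaz tumors above every sgCon tumor, and epithelial markers were between 2138 and 5069 CPM and between 1645.5 and 3974 CPM. Adipocyte markers were summed to between 55.1 and 121 CPM in sgCon tumors and between 40.9 and 245 CPM in sgTaz tumors. The sgTaz tumors were split, 3 above every sgCon tumor and 2 below every sgCon tumor. Of the lymph node stroma markers, Glycam1, Chst4, Ccl19 and Madcam1 were at 0 in a tumor, and of the B cell markers Ms4a1, Cr2, Fcer2a and Blk were. Fibroblast markers, 5 higher and 3 lower, endothelial markers, 5 higher and 1 lower, and skeletal muscle markers, 1 higher and 1 lower, were mixed.

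Within groups, Wwp1 had an r of 0.625 with the summed macrophage markers (rho 0.503; adjusted exact permutation p = 0.336 and 0.548, 10 tumors) and -0.626 with the epithelial markers (rho -0.806; adjusted exact permutation p = 0.268 and 0.161, 10 tumors). With the 2 farthest tumors left out, these were 0.8 and -0.593. Nedd4 had an r of 0.41 with the macrophage and 0.192 with the epithelial markers. Of 40 relations of Wwp1, Nedd4, Itch and Wwp2 with the marker lists, 0 passed the adjusted threshold by the exact permutation of r or rho. The smallest adjusted p was that of Wwp2 with the adipocyte markers, at an r of -0.788 and a rho of -0.83 (adjusted exact permutation p = 0.0917 and 0.114, 10 tumors; r -0.679 with the 2 farthest tumors left out), and Wwp2 was at an r of -0.793 with the endothelial markers (adjusted exact permutation p = 0.156, 10 tumors). The part of these cells in the differences of the members between groups was not tested.

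The other genes around the family were read from lists of the remaining HECT ligases, of adaptors and regulators, of E2 enzymes and of substrates. By edgeR's quasi-likelihood test at an adjusted p below 0.05, 0 of 18 other HECT ligases, 0 of 20 adaptors and regulators, 0 of 6 E2 enzymes and 0 of 30 tested substrates were called, beside 0.00675% of all genes. The substrates Erbb4, Scnn1b, Scnn1g and Trp73 had too few counts to be tested. At an unadjusted p below 0.05, 3 HECT ligases were higher and 1 was lower, 1 adaptor or regulator was higher and 2 were lower, 1 E2 enzyme was lower, and 4 substrates were higher and 2 lower. These are 14 of 74 genes (18.9%), beside 21.8% of all genes tested. The median log2 fold changes were 0.09, -0.09, 0.01 and 0.01, beside -0.02 over all genes tested.

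Named after their values were seen, these were Herc6, Ube3c and Ube3a higher and Herc3 lower among the HECT ligases, Usp9x higher and Laptm5 and Arrdc1 lower among adaptors and regulators, Ube2d2a lower among the E2 enzymes, and Igf1r, Fgfr1, Tgfbr1 and Jun higher and Klf2 and Junb lower among the substrates. DESeq2 called Herc6 and Igf1r higher and Klf2 and Junb lower, and limma-voom called these 4, with Fgfr1 higher and Arrdc1 lower besides. These are 5.41% and 8.11% of the 74 genes, beside 6.87% and 10.4% of all genes tested. The adaptors Ndfip1 and Ndfip2, which carry PPxY motifs and switch on several members of the family, had log2 fold changes of -0.11 and -0.0007 with edgeR.

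Groups were apart for 3 of the 74 listed genes (4.05%), beside 4.57% of all genes tested, so that their number does not set the lists apart, and their values are given as a description. Herc6, which in the mouse attaches the ubiquitin-like ISG15 to proteins, was at 89.4, 78.8, 68.1, 64.3 and 74.2 CPM in sgCon tumors and at 115, 115, 108, 95.1 and 101 CPM in sgTaz tumors, with a log2 fold change of 0.51 and a standard error of 0.097 (adjusted p = 0.0824 with edgeR and between 0.000325 and 0.229 over the alternatives). Igf1r, the receptor of insulin-like growth factor 1 and a substrate of NEDD4, averaged 147 ± 19.5 CPM (sgCon; SD, n = 5) and 193 ± 21.5 CPM (sgTaz; SD, n = 5), with a log2 fold change of 0.39 and a standard error of 0.11 (adjusted p = 0.101 with edgeR and between 0.0216 and 0.244 over the alternatives). Neither passed edgeR's adjusted threshold, although every sgTaz tumor was above every sgCon tumor.

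Klf2, a transcription factor that SMURF1 and WWP1 are known to ubiquitylate, was at 39.8, 50.4, 141, 38.3 and 50.7 CPM in sgCon tumors and at 31.8, 24.99, 24.8, 29.8 and 34.2 CPM in sgTaz tumors. Every sgTaz tumor was below every sgCon tumor, and the sgCon tumor 3 was far above the others. The log2 fold change was -1.14 with a standard error of 0.34 (adjusted p = 0.113 with edgeR and between 0.0157 and 0.258 over the alternatives), and it was -0.62 without the sgCon tumor 3.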

How the data were processed

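RNA of 10 whole tumors was harvested with Trizol and sequenced on an Illumina HiSeq, per the labels. The authors mapped reads to mm10 (GRCm38) with STAR in 2-pass mode and GENCODE annotation, checked them with RSeQC and counted them with featureCounts of Subread; CASAVA is named in the submitters' processing notes. Their GENCODE release was another than the one used below. Tool versions and the strand setting are not given in the sources used here. The deposited values are raw counts per gene, without normalization, and 5 further columns of the table were not used here. The deepest tumor had 19595821 counts and the shallowest 12185383, so that a floor of 3 counts stands for 1.53e-05% to 2.46e-05%, for counting error only.

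From these counts, genes were filtered with filterByExpr by group and fitted with edgeR 4.0.16 (TMM, glmQLFit, glmQLFTest, Benjamini-Hochberg adjusted p below 0.05) in R 4.3.3. Alternatives were DESeq2 1.42.0, limma 3.58.1 (voom with quality weights), upper-quartile and RLE normalization, no filter, at least 10 counts in every tumor, each tumor left out, the replicate number as a block, and an offset for GC content and exon length (natural splines with 5 degrees of freedom). Log2 CPM and RPKM used a prior count of 2. Tests over tumors, with p from exact enumeration, and sequence matching were run in Python 3.11.15 (pandas 2.3.3, scipy 1.17.1, numpy 2.4.6). Relations within groups with p, and the offset in them, were chosen after seeing the data. Symbols, exons and transcripts come from GENCODE M21, in which 17860 of 17864 identifiers were found, 17673 of them with the same version. Positions and exon lengths of Nedd4 and Nedd4l come from ENSMUSG00000032216.14 and ENSMUSG00000024589.17, each another version than that of the counts. The RPKM of these genes thus divide counts by the exon length of another version. The cysteine codon was taken where the coding sequence encodes threonine, cysteine, phenylalanine and asparagine in a row, which each coding sequence did at 1 place.

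The members, gene lists and marker lists were chosen with earlier results of these data known. Named are all members, Wwtr1, listed genes past the adjusted threshold or, up to 4 in each direction by smallest p, with groups apart and a mean of at least 1 CPM, and the 5 genes most and 3 least like Wwp1 within groups. Tumors of a group all differed beyond sampling noise, with a chi-square per gene of at least 6.49. The scripts were tested on simulated data.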

Additional observations from a re-analysis of the deposited data

Results flagged for a closer look

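Of 50 sets of 5 tumors examined with Dixon's criterion, each a gene or marker list in 1 group, 6 had a tumor far from the other 4, where chance gives about 2.5. For Wwp2, the sgCon tumor 2 was at 6.27 log2 CPM and the other sgCon tumors between 6.38 and 6.43. For Nedd4l, the sgTaz tumor 1 was at 3.22 log2 CPM and the others between 3.82 and 4.04. For Smurf1, the sgCon tumor 4 was at 6.16 log2 CPM and the others between 6.43 and 6.53. The lymph node stroma markers of the sgTaz tumor 5 were summed to 8.46 on the log2 scale of CPM, against 1.63 to 3.02 in the others. The macrophage markers of the sgTaz tumor 2, which also had the lowest Wwp1 of its group, were at 10.6 on that scale, against 10.9 to 11.1. For Klf2, the sgCon tumor 3 was at 7.14 log2 CPM and the others between 5.26 and 5.67.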

How the results depend on the processing

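The log2 fold changes of the members kept their sign in 144 of 152, and the exceptions were of Smurf1, which lay between -0.08 and 0.04. The median r of Wwp1 with the other members, -0.054, was 0.006 as Spearman's rho and 0.05 without the sgCon tumor 3. Calls in the lists moved from 0: for other HECT ligases higher, to 1 (Herc6) with DESeq2, limma-voom and without the sgTaz tumor 5; for adaptors and regulators lower, to 1 (Arrdc1) with limma-voom and without the sgTaz tumor 2; for substrates higher, to 1 with DESeq2 and 2 with limma-voom; and for substrates lower, to 2 with DESeq2 or limma-voom and 1 (Junb) without the sgTaz tumor 2. With each tumor left out, each of these counts was between 0 and 1. The cause was not tested.

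With the longest transcript as the length, the log2 differences of Wwp1 minus Smurf1, Smurf1 minus Itch and Itch minus Wwp2 became -0.11, -0.15 and -0.0555. In sgCon tumors alone, the 7 differences in the order of the report were 1.91, 0.66, -0.23, 0.63, -0.12, 3.32 and 1.55. In sgTaz tumors alone, they were 2.29, 0.12, 0.46, 0.36, 0.34, 3.40 and 1.04. With 5 tumors no p can be below 0.0625. With each tumor left out, Smurf2 minus Wwp1 was between 0.31 and 0.44.

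Tumors with the same replicate number in both groups did not deviate together, with a correlation of their deviations between -0.243 and 0.221, so the number was not read as a pairing. With the number as a block, the log2 fold change of Wwp1 was 0.68, and 0.61 with the block and the GC and length correction together, and the block called 0 members, as without it. The 1 gene called over all genes became 0 with the block. Counts of 48 to 117 limit what can be said of Hecw2.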
